A study of Mus musculus with 15 samples.

Results

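Adgrb3, Cacna2d1, Prkce, Pgf, March11 and 1700010I14Rik are 6 of the 32285 genes counted in single-cell RNA sequencing (scRNA-seq) libraries of mouse testis. They were picked because their values were higher after JQ1 than in untreated males in germ cells that precede the haploid stage, so their levels in those groups are given as a description and carry no test. The same genes in mice that had recovered from JQ1 took no part in that choice and were tested.

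JQ1 is a small molecule that occupies the bromodomains of BET proteins, including the testis-specific member BRDT, and keeps them from binding acetylated histones. All 15 libraries came from male DBA/2J mice, 1 testis of 1 mouse each, with 3 libraries per group. Treated mice (T) received 50 mg/kg JQ1 daily by intraperitoneal injection for 3 wk and were 10 wk old, and vehicle controls of that time (VC-T, 10 wk old) received the vehicle, DMSO in a cyclodextrin solution, instead. Recovery mice (R) were 16 wk old and were collected 6 wk after the last JQ1 dose, vehicle controls of that time (VC-R) were also 16 wk old, and untreated controls (UC) received no injection and were 15 wk old. T and UC mice thus also differed in age by 5 wk, and age and treatment cannot be told apart between them. T and VC-T mice were of 1 age.

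Adgrb3 encodes an adhesion G protein-coupled receptor of the brain-specific angiogenesis inhibitor family, best known at synapses. Cacna2d1 encodes the α2δ-1 auxiliary subunit of voltage-gated calcium channels, which brings the pore-forming subunit to the cell surface and is the binding site of gabapentin. Prkce encodes protein kinase C epsilon, an isoenzyme activated by diacylglycerol without calcium. Pgf encodes placental growth factor, a secreted ligand of the VEGF family that binds the receptor FLT1. March11 encodes a membrane-bound E3 ubiquitin ligase known from developing spermatids, and 1700010I14Rik is a protein-coding gene known by its RIKEN clone name only. In spermatogenesis, spermatogonia divide by mitosis and enter meiosis as spermatocytes, whose long pachytene stage switches on many genes that later serve the haploid spermatids.

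The 6 genes lie on 5 chromosomes and differ widely in size. On GRCm38 (mm10), Adgrb3 spans 762.2 kb on the minus strand (chr1:25067476-25829707), Prkce 490.1 kb on the plus strand (chr17:86167785-86657919) and Cacna2d1 439.8 kb on the plus strand (chr5:15934691-16374511). March11 spans 100.5 kb (chr15:26309048-26409576, plus strand), 1700010I14Rik 23.6 kb (chr17:8988333-9011949, plus strand) and Pgf 11.2 kb (chr12:85166635-85177790, minus strand). Genes of at least 300 kb, as 3 of the 6 are, had a median log2 fold change of 0.11 in T vs UC spermatocyte-like cells over 370 genes tested, against 0.00 over all genes, and 6.22% of them passed the thresholds for a higher level.

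The sequence before the start site is shown for the 5 genes with a RefSeq promoter entry so that the features of these sequences can be set side by side. Each line holds the 250 bases upstream of the RefSeq start on the gene's own strand (GRCm38.p6, the C57BL/6J reference and not DBA/2J), and capitals mark matches on either strand to the motifs searched. The windows are chr1:25829708-25829957 for Adgrb3 (minus strand), chr5:15934441-15934690 for Cacna2d1 (plus), chr12:85177314-85177563 for Pgf (minus, the first of 2 RefSeq starts), chr15:26308798-26309047 for March11 (plus, Marchf11 in RefSeq) and chr17:8988083-8988332 for 1700010I14Rik (plus).
Adgrb3: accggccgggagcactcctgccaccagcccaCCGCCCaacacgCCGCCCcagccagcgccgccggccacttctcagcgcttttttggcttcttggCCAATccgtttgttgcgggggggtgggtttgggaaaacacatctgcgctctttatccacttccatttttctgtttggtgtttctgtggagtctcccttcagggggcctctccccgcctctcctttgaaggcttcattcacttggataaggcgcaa
Cacna2d1: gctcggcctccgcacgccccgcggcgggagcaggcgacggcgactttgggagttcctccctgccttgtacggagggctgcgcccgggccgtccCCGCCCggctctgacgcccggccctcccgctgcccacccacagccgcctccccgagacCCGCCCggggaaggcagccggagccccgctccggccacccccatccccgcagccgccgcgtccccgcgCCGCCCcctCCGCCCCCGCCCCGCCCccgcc
Pgf: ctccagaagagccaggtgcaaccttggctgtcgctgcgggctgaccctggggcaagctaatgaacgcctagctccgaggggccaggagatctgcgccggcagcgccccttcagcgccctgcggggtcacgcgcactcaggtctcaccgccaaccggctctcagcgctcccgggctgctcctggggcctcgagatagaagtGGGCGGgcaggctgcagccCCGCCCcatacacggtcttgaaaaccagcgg
March11: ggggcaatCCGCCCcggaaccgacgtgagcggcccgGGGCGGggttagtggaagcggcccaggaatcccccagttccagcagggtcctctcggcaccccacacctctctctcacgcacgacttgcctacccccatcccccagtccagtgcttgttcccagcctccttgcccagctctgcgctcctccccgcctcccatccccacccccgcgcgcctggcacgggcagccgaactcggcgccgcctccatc
1700010I14Rik: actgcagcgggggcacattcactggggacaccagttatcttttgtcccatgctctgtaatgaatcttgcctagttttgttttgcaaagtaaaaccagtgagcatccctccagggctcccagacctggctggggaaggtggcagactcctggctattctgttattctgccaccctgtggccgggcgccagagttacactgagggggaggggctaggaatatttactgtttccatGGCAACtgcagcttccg

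GC content was 82.4% in the Cacna2d1 window, higher than in 99.4% of the 32851 promoter windows of the reference, whose median was 52.4%. It was 71.2% for March11, 68.4% for Pgf, 59.2% for Adgrb3 and 53.6% for 1700010I14Rik. The GC box GGGCGG, which 32.7% of all windows hold, occurred 6 times for Cacna2d1 with overlapping copies, 2 times each for Adgrb3, Pgf and March11, and not in the window of 1700010I14Rik. Adgrb3 also held 1 CCAAT box (33.9% of all windows), and 1700010I14Rik held GTTGCC, a core of the motif bound by RFX factors (10.4% of all windows), 17 bases before the start. None of the 5 windows held the TATA box (TATAAA, in 12.4% of all windows), the core bound by MYB factors (CCGTTG, in 4.05%) or the cAMP response element (TGACGTCA, in 1.55%). These matches describe letters only.

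The libraries held between 9673587 and 98724982 UMIs, each a single counted RNA molecule, over 3407 to 14221 barcodes, and 72362 cells passed the filters used here. Cells were grouped by clustering and named from marker genes. None of the 6 genes was among the 2000 used for clustering. The spermatogonia-like class held 1929 cells (187 to 346 per T library and 19 to 135 per UC library), the spermatocyte-like class 15216 cells (1280 to 2659 and 315 to 603), and the spermatid-like class 21953 cells. Libraries shared at most 0.55% of the barcodes of the smaller one. Library VC-T 1 stood apart from the other vehicle controls: it held 1 spermatozoon-like cell, and T 1, T 2 and T 3 held 8, 0 and 12. The study left it out of its tests of expression. It is left out of the fits and the group means below, except for shares of cells, values by cluster and fits said to include it. Its own values are given.

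The labels of the classes held against their markers with reservations for the spermatogonia-like class. Spermatogonia-like cells carried Dmrt1, Kit and Stra8 at 238, 105 and 248 CPM (UMIs per 1000000 UMIs of the class), and spermatocyte-like cells carried Dmrt1 and Kit at 0.754 and 1.13 CPM. Spermatocyte-like cells carried Sycp3 at 506 CPM and Piwil1 at 490 CPM. The synaptonemal gene Sycp1 stood at 648 CPM in spermatogonia-like and 554 CPM in spermatocyte-like cells, so the spermatogonia-like class, 1 cluster of differentiating cells, also carried a marker of meiotic entry. That class further carried the late haploid markers Smcp, Gapdhs and Oaz3 at 443, 204 and 187 CPM, above Kit. Spermatozoon-like cells carried them at 11325, 4119 and 2140 CPM. The 6 genes were not all higher in both classes: 4 were higher in T than in UC in spermatocyte-like cells, 3 in spermatogonia-like cells, and Pgf alone in both.

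Adgrb3, Cacna2d1, Prkce and Pgf stood higher in spermatocyte-like cells of each T library than in those of each of the 12 other libraries. The T libraries served to pick these genes. How many of all genes were so placed was not counted, here or in the comparisons of libraries below, so nothing is read from this placing. Levels are CPM within the summed UMIs of a class and library. Adgrb3 measured 66.3, 57.8 and 66.2 CPM in T 1, T 2 and T 3 and 17.7, 13.1 and 15.5 CPM in UC 1, UC 2 and UC 3. The same receptor gene measured 19.8 and 11.4 CPM in VC-T 2 and VC-T 3, 23.1, 15.4 and 20.1 CPM in R, and 23.9, 16.9 and 15.7 CPM in VC-R. The lowest T library, at 57.8 CPM, thus lay well above the highest of these controls, at 23.9 CPM. In VC-T 1 Adgrb3 measured 25.2 CPM, above those controls and below every T library.

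Cacna2d1 measured 22.3, 18.1 and 25.5 CPM in T and 2.89, 3.99 and 3.99 CPM in UC. Its levels were 4.36 and 5.00 CPM in VC-T 2 and VC-T 3, 4.26, 5.24 and 6.24 CPM in R, 3.52, 6.49 and 3.92 CPM in VC-R, and 7.08 CPM in VC-T 1. The calcium channel subunit thus ran from 2.89 to 7.08 CPM outside T and from 18.1 CPM upward within it, on 616 UMIs in T and 38 in UC.

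Pgf measured 17.5, 16.5 and 13.7 CPM in T and 3.85, 5.44 and 5.31 CPM in UC, from 480 and 51 UMIs. It stood at 5.09 and 4.76 CPM in VC-T 2 and VC-T 3, 4.87, 5.54 and 6.55 CPM in R, 5.38, 2.60 and 5.10 CPM in VC-R, and 6.37 CPM in VC-T 1. The highest library outside T, R 3, thus lay below the lowest T library for this ligand.

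Prkce measured 86.1, 76.1 and 79.5 CPM in T and 37.6, 39.6 and 39.2 CPM in UC. It stood at 43.8 and 31.4 CPM in VC-T 2 and VC-T 3, 49.1, 38.7 and 45.2 CPM in R, 41.4, 34.5 and 34.5 CPM in VC-R, and 46.6 CPM in VC-T 1. T did not overlap the other libraries for this kinase either, with the smallest relative gap of the 4 genes.

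March11 and 1700010I14Rik did not separate the groups in spermatocyte-like cells. March11 ranged from 1211 to 1395 CPM over the 15 libraries, with 1294 ± 88.3 CPM in T and 1286 ± 17.8 CPM in UC (mean ± SD, n = 3 libraries each). 1700010I14Rik ranged from 815 to 927 CPM, with 869 ± 38.1 CPM in T and 874 ± 41.2 CPM in UC.

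**Figure D1:**
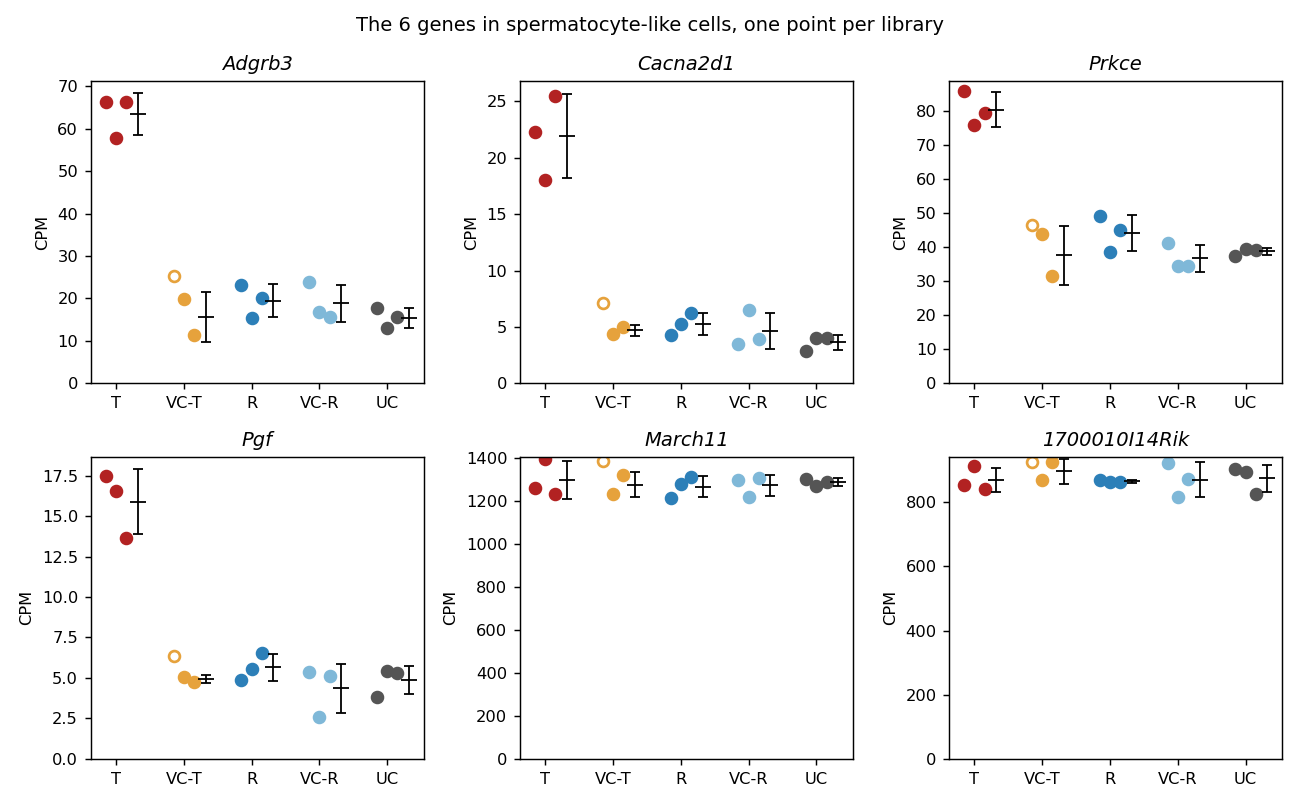
Level (CPM, linear axis from 0) of the 6 genes in spermatocyte-like cells of each library, 1 point per library and 1 panel per gene, by group. Black dashes and bars are the mean ± SD without VC-T 1, the open marker. The 3 T libraries sit above all others for Adgrb3, Cacna2d1, Prkce and Pgf and among them for March11 and 1700010I14Rik.

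The fit over 12099 genes gave these differences as log2 fold changes with a standard error (SE), described here without a p because the contrast chose the genes. In T vs UC spermatocyte-like cells, Cacna2d1 was higher by 2.50 (SE 0.22, a fold of 5.65), Adgrb3 by 1.97 (SE 0.12, a fold of 3.91), Pgf by 1.65 (SE 0.21, a fold of 3.14) and Prkce by 0.99 (SE 0.09, a fold of 1.99). Ranked by log2 fold change among all genes tested, they held ranks 5, 22, 49 and 316. March11 (-0.05) and 1700010I14Rik (-0.07) lay near 0. The study's thresholds, an adjusted p below 0.05 with a log2 fold change over 1 in size, were passed by 3 of the 6 genes, where 1.93% of all genes passed in the higher direction and 4.54% in either, and nothing is read from that count. Prkce lay just under the fold threshold. The median of the 6 genes was 1.32, and that of all genes 0.00.

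Against the vehicle controls of the same age, which share the T libraries with the contrast above, the values were 2.12 (SE 0.23) for Cacna2d1, 1.89 (SE 0.16) for Adgrb3, 1.60 (SE 0.23) for Pgf and 0.99 (SE 0.12) for Prkce. March11 (-0.08) and 1700010I14Rik (-0.15) again lay near 0. The thresholds were passed by the same 3 genes, Cacna2d1, Adgrb3 and Pgf, where 1.81% of 13013 genes passed in the higher direction and 6.02% in either.

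The share of spermatocyte-like cells with at least 1 UMI told the same order after each cell was thinned to 2000 UMIs. Adgrb3 was found in 11.0% ± 0.741 (SD, n = 3 libraries) of T cells, against 3.03% in UC, 3.96% in VC-T, 4.18% in R and 3.42% in VC-R. Cacna2d1 was found in 4.70% of T and 0.905% of UC cells, Prkce in 14.1% and 6.75%, and Pgf in 2.49% and 0.776%. Cells below 2000 UMIs were left out, 3.84% to 29.9% of a T library and 18.6% to 23.5% of a UC library. Before thinning, Adgrb3 was found in 20.6% of T, 16.0% of R and 9.84% of UC cells, at median depths of 3460 to 5235, 8059 to 11710 and 5829 to 8496 UMIs per cell. As a background, in the 206 macrophage-like cells of R (median depth 1951 to 3927 UMIs) the thinned shares were 0.00% for Adgrb3, 1.15% for Cacna2d1, 2.12% for Prkce and 0.554% for Pgf. The shares outside T were low, 0.905% to 1.57% for Cacna2d1 and 0.697% to 1.08% for Pgf. In R itself they were 1.23% and 1.08%, beside the 1.15% and 0.554% of these macrophage-like cells. That background comes from R alone and rests on few cells. Whether the low shares outside T are expression was not tested. In T itself the Sertoli-like cells (91 cells of T 1 and T 3, median depth 1677 to 1709 UMIs, 55.6% to 62.2% left out) gave thinned shares of 6.12% for Adgrb3, 3.66% for Cacna2d1, 14.7% for Prkce and 1.74% for Pgf. The Prkce share of T spermatocyte-like cells was not above that of these cells, and Sertoli-like cells of UC gave 19.2% for Prkce, 0.474% for Adgrb3, 0.385% for Cacna2d1 and 0.00% for Pgf. The part of free RNA in these shares was not tested.

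Measures of cell quality in spermatocyte-like cells lay as follows. Mitochondrial UMIs made up 1.40% to 1.54% in T and 1.40% to 1.42% in UC, and 5 RNAs kept in the nucleus, summed, stood at 629 to 894 and 750 to 844 CPM. Summed Sertoli markers stood at 6.44 to 28.1 CPM in T and 24.1 to 34.1 CPM in UC. The part of these values in the gene levels was not tested.

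The 4 genes differed among themselves in where within the spermatocyte-like cells they were highest. In pachytene clusters Adgrb3 stood at 53.2 ± 1.63 CPM in T and 11.1 ± 1.47 CPM in UC, and in the diplotene and dividing clusters at 47.8 ± 3.20 and 22.9 CPM. Cluster 22, a group of spermatocyte-like cells without a substage name, carried it at 141 ± 24.2 CPM in T against 45.0 CPM in UC, 32.1 CPM in VC-T (here with VC-T 1), 39.0 CPM in R and 47.7 CPM in VC-R. Cluster 23, of diplotene and dividing cells, carried it at 77.1 CPM in T and 36.0 to 55.1 CPM in the other groups. The receptor gene thus peaked in cluster 22 in T, while in UC both clusters stood at a like level.

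Cacna2d1 too peaked in cluster 22 of T, with 62.3 ± 7.53 CPM in cluster 22 of T and 12.5 to 16.0 CPM in the other groups, and 16.9 ± 3.24 CPM in T pachytene clusters against 1.86 CPM in UC. Prkce was highest in pachytene cluster 15, with 132 ± 16.5 CPM in T and 44.5 to 56.1 CPM in the other groups. In diplotene and dividing clusters it stood at 52.4 ± 4.47 CPM in T, inside the 42.2 to 55.5 CPM of the other groups, so the groups were set apart in pachytene cells and not in these later ones. Outside T its highest level was in cluster 23, with 59.4 to 78.5 CPM.

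Pgf had a further placing. It stood at 26.2 ± 1.35 CPM in the diplotene and dividing clusters of T against 10.6 CPM in UC, with its peak in pachytene cluster 11 (35.8 ± 6.54 CPM in T, 13.6 CPM in UC), and at 1.11 CPM in cluster 22 of T. Leptotene and zygotene cells were too few for a reading, with 33 cells in the T libraries that held at least 10 of them. March11 stood at 1343 CPM in T and 1384 CPM in UC pachytene clusters, and 1700010I14Rik at 902 and 936 CPM.

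**Figure D2:**
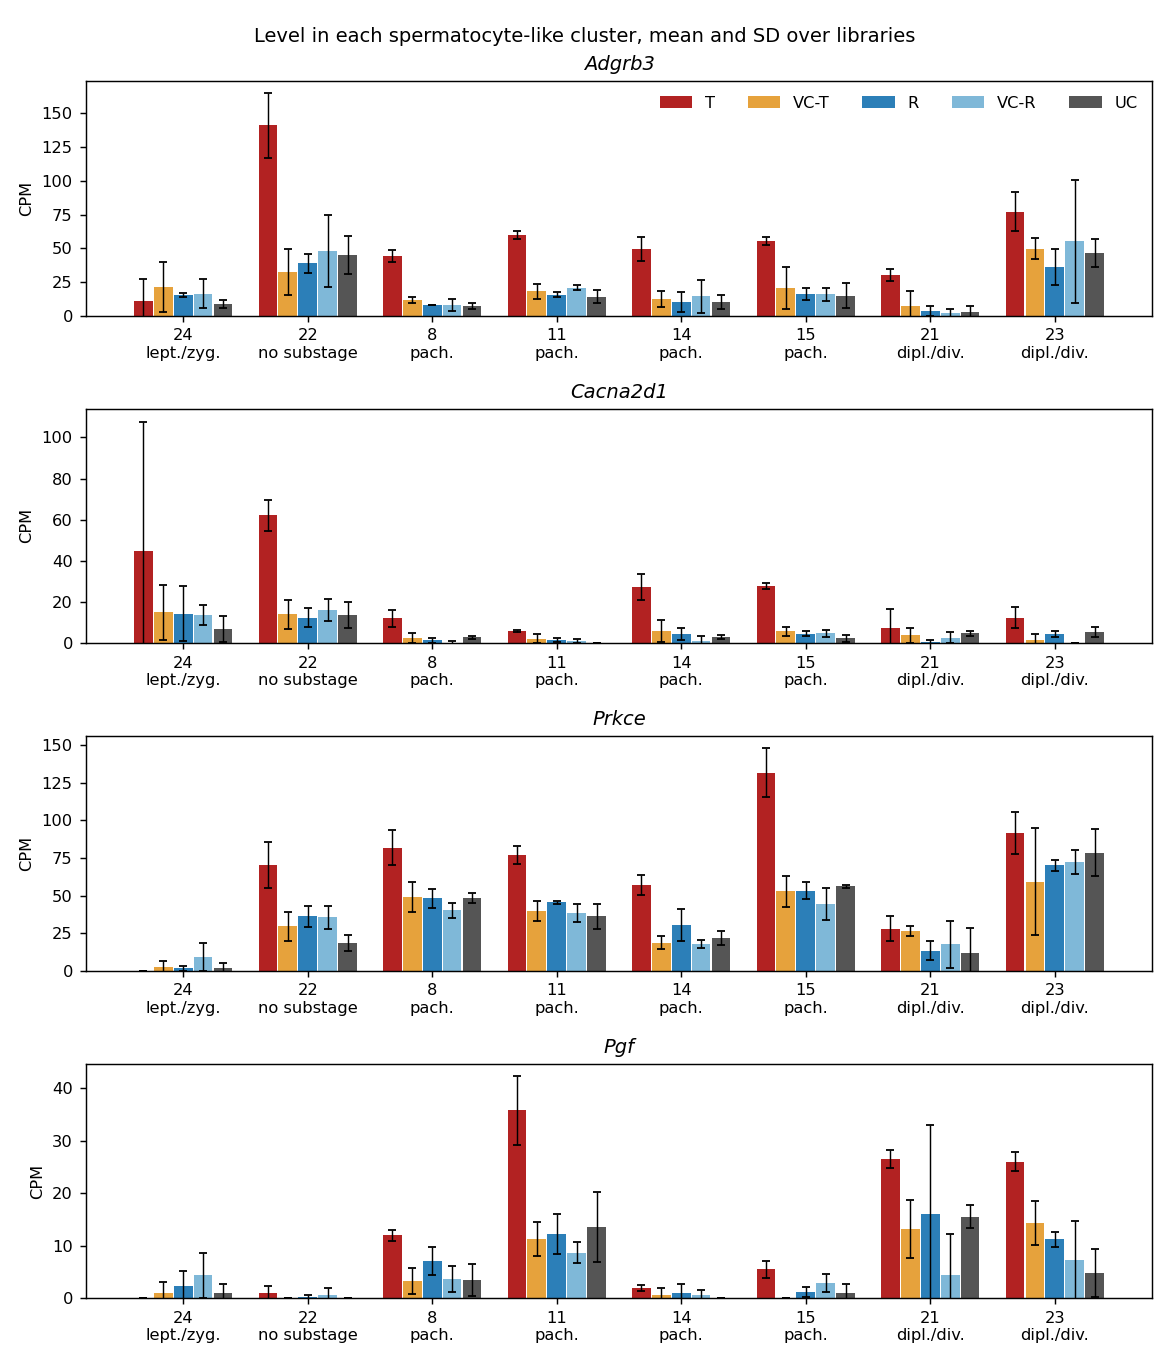
Mean level (CPM, bars from 0) of Adgrb3, Cacna2d1, Prkce and Pgf in the 8 spermatocyte-like clusters of at least 1000 cells, by group, with bars for the SD over libraries that held at least 10 cells of the cluster. VC-T bars include VC-T 1. T bars are the tallest for Adgrb3 and Cacna2d1 in cluster 22, for Prkce in cluster 15 and for Pgf in cluster 11.

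The mix of these clusters differed between T and UC. Pachytene cells numbered 3766 in T and 721 in UC, diplotene and dividing cells 1365 and 292, and cells of cluster 22 numbered 825 and 124. Leptotene and zygotene cells numbered 20, 8 and 13 in T 1, T 2 and T 3 and 40, 44 and 122 in UC 1, UC 2 and UC 3. With 279 cells per library drawn in equal numbers from each cluster, 3 of the 6 genes passed the thresholds in T vs UC, where 1.75% of 9620 genes did so in the higher direction and 3.19% in either, and nothing is read from that count.

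March11 and 1700010I14Rik had higher levels in spermatogonia-like cells of T than in those of UC, although Sertoli-like and Leydig-like cells of T, given below, carried like levels. March11 measured 317, 388 and 352 CPM in T, from 207, 172 and 122 UMIs, and 58.6, 82.7 and 114 CPM in UC, from 4, 17 and 44 UMIs. It stood at 61.5 and 133 CPM in VC-T 2 and VC-T 3, 167, 179 and 170 CPM in R, and 353, 111 and 118 CPM in VC-R. VC-R 1, with 38 cells and 35 UMIs of March11, lay inside the T range, so T did not stand apart from every control for this ubiquitin ligase gene. VC-T 1, at 601 CPM, lay above all T libraries.

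1700010I14Rik measured 233, 262 and 303 CPM in T, 117, 58.4 and 72.4 CPM in UC, 58.0 and 88.0 CPM in VC-T 2 and VC-T 3, 150.2, 108 and 95.3 CPM in R, and 222, 66.3 and 167 CPM in VC-R. T libraries were above each of these 11 controls, the closest being VC-R 1, and VC-T 1 was above T with 329 CPM. Pgf measured 26.0, 20.3 and 11.5 CPM in T on 17, 9 and 4 UMIs, against 1 UMI in all UC cells, 1 in VC-R, 5 in R, and 5 in VC-T, of which 2 were from VC-T 1. Of the 12 libraries outside T, 7 held no UMI of this ligand in 19 to 124 cells, which at this depth does not show that it is absent.

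Adgrb3, Cacna2d1 and Prkce overlapped between groups in spermatogonia-like cells. Adgrb3 measured 44.4, 81.2 and 60.6 CPM in T and 58.6, 63.2 and 49.1 CPM in UC. Cacna2d1 measured 47.5, 38.4 and 37.5 CPM in T and 43.9, 58.4 and 44.0 CPM in UC. Prkce rested on at most 9 UMIs in any library. Adgrb3 and Cacna2d1 therefore had, in UC, a higher level before meiosis than in spermatocyte-like cells, 57.0 against 15.4 CPM for Adgrb3 and 48.8 against 3.62 CPM for Cacna2d1, and in T the receptor gene stood at 62.1 CPM before and 63.5 CPM in meiosis.

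**Figure D3:**
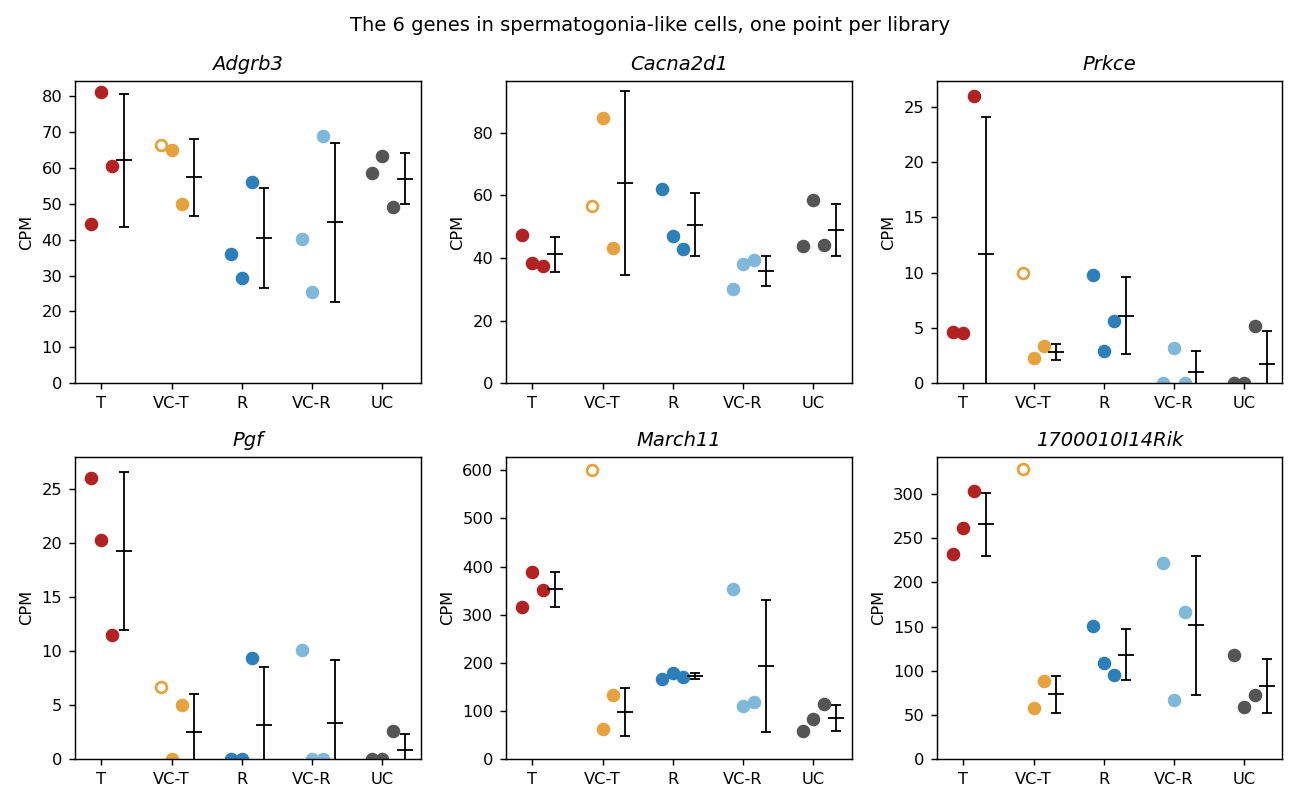
Level (CPM, linear axis from 0) of the 6 genes in spermatogonia-like cells of each library, 1 point per library and 1 panel per gene, by group, with mean ± SD without VC-T 1 (open marker) in black. T libraries sit above UC for March11, 1700010I14Rik and Pgf, VC-T 1 and VC-R 1 reach or pass the T range for March11, and Adgrb3, Cacna2d1 and Prkce overlap.

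In T vs UC spermatogonia-like cells the fit gave log2 fold changes of 1.85 (SE 0.20, a fold of 3.60) for March11 and 1.83 (SE 0.23, a fold of 3.56) for 1700010I14Rik, and 0.13 (SE 0.32) for Adgrb3 and -0.22 (SE 0.33) for Cacna2d1. Prkce and Pgf had too few UMIs for the filter on low counts. Of the 4 genes tested 2 passed both thresholds, where 5.00% of 7205 genes did so in the higher direction and 5.77% in either. Against VC-T 2 and VC-T 3, March11 was higher by 1.82 (SE 0.25), 1700010I14Rik by 1.81 (SE 0.22) and Pgf by 3.12 (SE 0.81), and these 3 of 5 genes tested passed, where 7.49% of 9430 genes did so in the higher direction and 8.29% in either. These vehicle values rest on few libraries. Without VC-T 2 the values became 1.25 for March11 and 1.83 for Pgf, which no longer passed, and without VC-T 3 they became 2.50 and 6.56. With VC-T 1 included, 0 genes passed, at 0.46 for March11 and 0.82 for 1700010I14Rik.

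The summed level of genes of the pachytene stage was also higher in T than in UC in these cells. The 7 markers fixed for that stage (Piwil1, Pou5f2, Mybl1, Ldhc, Tbpl1, Adam3 and Spink2) summed to 2792 to 2970 CPM in spermatogonia-like cells of T and 705 to 1641 CPM in those of UC, with 783 and 1573 CPM in VC-T 2 and VC-T 3, 1643 to 2037 CPM in R and 1210 to 3374 CPM in VC-R. Each T library was above each UC library for 5 of the 7, all but Piwil1 and Mybl1. Each T library was above every other library except VC-T 1 for only 1 of the 7, Spink2. Only Pou5f2 was at 0 in any library, in 3 of 15. In VC-T 1 the sum was 4125 CPM.

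Expressed as a share of the level in the spermatocyte-like cells of the same library, the marker sum stood at 29.7%, 26.2% and 29.0% in T and at 14.6%, 6.35% and 12.8% in UC. March11 stood at 25.2%, 27.8% and 28.6% in T and at 4.50%, 6.52% and 8.85% in UC, and 1700010I14Rik at 27.3%, 28.7% and 36.0% against 13.0%, 6.54% and 8.76%. The pair thus stood at about the same share as the marker sum in T. Most of that sum in spermatogonia-like cells of T was 1 gene, Ldhc, at 1790 to 2011 CPM. VC-R 1 showed 30.3% for the markers, 27.2% for March11 and 24.0% for 1700010I14Rik, and VC-T 1 showed 38.2%, 43.4% and 35.5%.

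**Figure D4:**
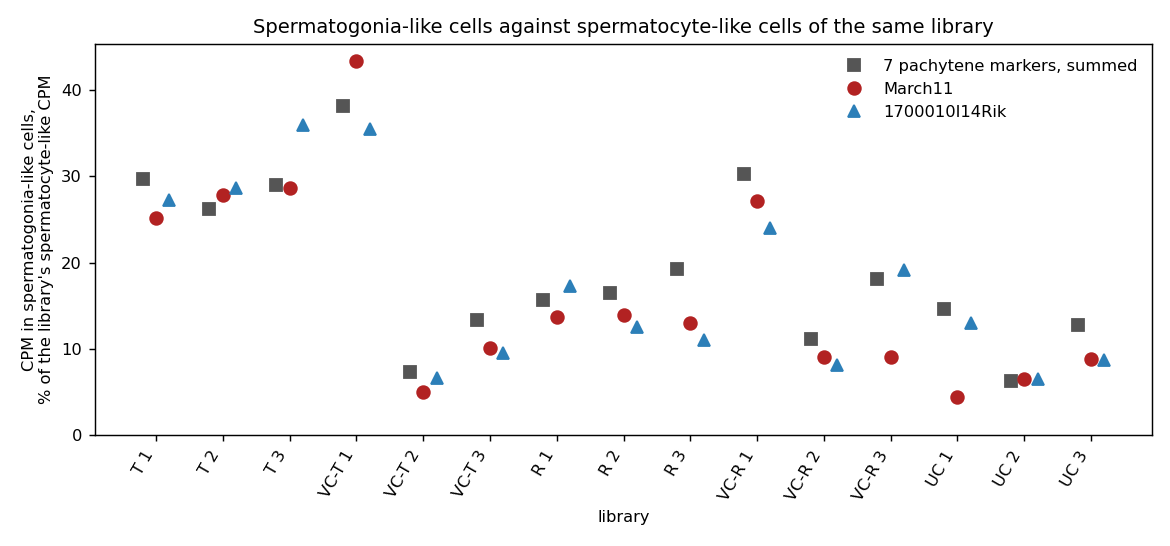
Level in spermatogonia-like cells as a percentage of the level in spermatocyte-like cells of the same library (linear axis from 0) for the 7 pachytene markers summed (squares), March11 (circles) and 1700010I14Rik (triangles), with libraries along the horizontal axis. The T libraries lie between 25.2% and 36.0%, VC-T 1 lies between 35.5% and 43.4%, and VC-R 1 lies beside T.

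The molecules of these 2 genes were unevenly spread over cells. March11 was found in 100 of 346, 66 of 220 and 44 of 187 spermatogonia-like cells of T 1, T 2 and T 3, and the 10 cells richest in it held 42.0%, 55.2% and 62.3% of its UMIs, with up to 18, 17 and 21 in 1 cell. For 1700010I14Rik the 10 richest cells held 36.2%, 51.7% and 57.1%. After thinning, March11 was found in 36.2% of T and 14.6% of UC cells, with 70.9% to 77.5% of T cells left out as too shallow (median depth 1419 to 1598 UMIs in T and 2295 to 2647 in UC).

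Classes named from somatic markers held UMIs of both genes as well. Sertoli-like cells, named after the somatic nurse cells of the tubule, measured 519.5 and 520.4 CPM of March11 in T 1 and T 3. For 1700010I14Rik they measured 398 and 355 CPM. Both genes lay above their levels in the spermatogonia-like cells of these libraries. Sertoli-like cluster 5, with 44 cells of T, had a Sertoli marker score of 2.472. Its scores for spermatids (0.475) and spermatozoa (0.205) were positive too. Cluster 28, with 53 cells of T, scored 4.98 for Sertoli and -1.497 and -1.654 for these haploid classes. The part of germ cells or free RNA in the Sertoli-like levels was not tested. In macrophage-like cells of R, which should lack it, March11 was found in 28.7% of thinned cells, against 26.0% of spermatogonia-like cells of R. The R share of spermatogonia-like cells was thus not above that of macrophage-like cells. In Leydig-like cells of T 1 and T 3, the hormone-producing cells between the tubules (16 cells each), March11 stood at 435 and 434 CPM, from 13 and 10 UMIs, and 1700010I14Rik at 234 and 391 CPM. Before thinning March11 was found in 28.1% of these cells, at median depths of 1158 to 1702 UMIs, and in 27.5% of spermatogonia-like cells of T, at 1419 to 1598 UMIs. The T share of spermatogonia-like cells was thus not above that of Leydig-like cells, on few cells. In UC, March11 stood at 849, 205 and 184 CPM in Sertoli-like cells of UC 1, UC 2 and UC 3. Leydig-like cells of UC 1 and UC 3 carried it at 1013 and 219.5 CPM. Whether either gene's level in spermatogonia-like cells of T is expression by those cells was not tested and is not claimed here. The ratio of March11 to 1700010I14Rik UMIs was 1.36, 1.48 and 1.16 in spermatogonia-like cells of T, and 1.30 and 1.46 in the Sertoli-like cells of T 1 and T 3. Whether pachytene cells, cell mixtures or free RNA had a part in the spermatogonia-like levels was not tested.

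In R vs VC-R, the comparison that did not serve to pick the genes, none of the 6 genes passed the test in spermatocyte-like cells (edgeR quasi-likelihood test, Benjamini-Hochberg adjustment). Across all 13529 genes 0 passed with edgeR and 0 with DESeq2, while 884 (6.53%) had an unadjusted p under 0.05 with edgeR, none of them 1 of the 6. The log2 fold change was -0.04 for Adgrb3 (95% interval -0.45 to 0.37, edgeR adjusted p = 0.979, 0.622 to 1 over the alternatives) and 0.11 for Cacna2d1 (-0.48 to 0.71, edgeR adjusted p = 0.953, 0.658 to 1). Whether the effect differed between the treatment and recovery times was not tested.

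Prkce differed between R and VC-R by 0.20 (-0.07 to 0.47, edgeR adjusted p = 0.78, 0.229 to 1 over the alternatives) and Pgf by 0.39 (-0.21 to 0.99, edgeR adjusted p = 0.806, 0.249 to 1). The data leave room for a difference of the kinase or the ligand up to the upper ends of these intervals. March11 (-0.07, -0.21 to 0.06, edgeR adjusted p = 0.832, 0.534 to 1) and 1700010I14Rik (-0.07, edgeR adjusted p = 0.832, 0.581 to 1) lay near 0 with narrow intervals.

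In spermatogonia-like cells of R and VC-R, 4 of the 6 genes had enough UMIs for the test and 0 passed, as did 0 of 6454 genes with edgeR and 0 with DESeq2, with 392 (6.07%) at an unadjusted p under 0.05. March11 differed by -0.01 (-0.70 to 0.68, edgeR adjusted p = 1, 0.23 to 1 over the alternatives) and 1700010I14Rik by -0.15 (edgeR adjusted p = 0.976, 0.772 to 1). Without VC-R 1 these became 0.58 and 0.26. Adgrb3 (0.13, edgeR adjusted p = 0.994, 0.919 to 1) and Cacna2d1 (0.41, edgeR adjusted p = 0.93, 0.818 to 1) did not pass either, and the interval of the former ran from -0.81 to 1.08. The libraries held 38 to 92 of these cells each, and the size of difference that could be detected was not computed.

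**Figure D5:**
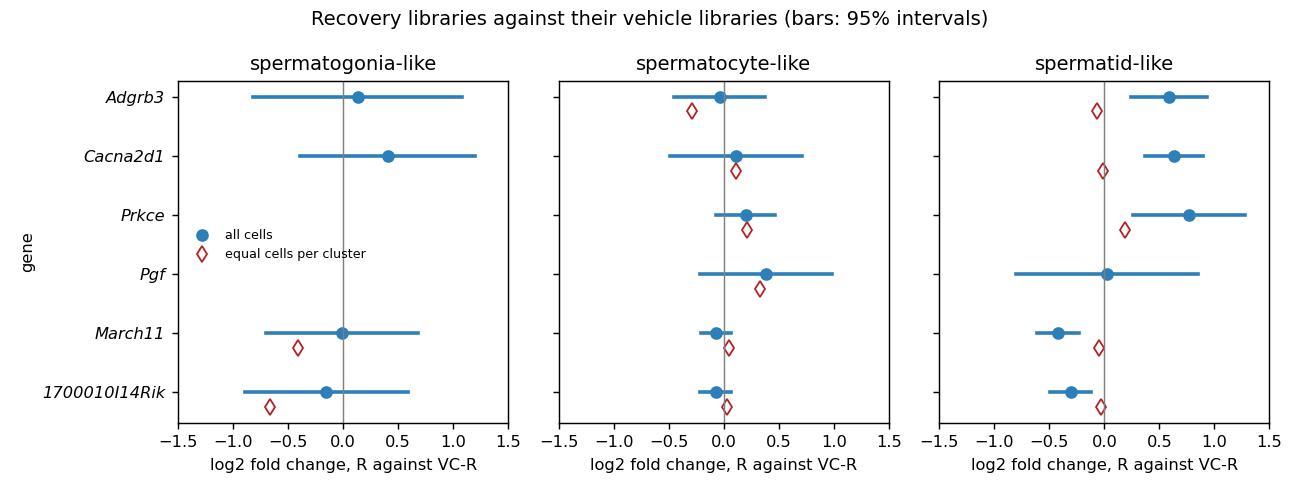
Log2 fold change (R over VC-R) of the 6 genes with 95% intervals in spermatogonia-like, spermatocyte-like and spermatid-like cells, with 0 marked by a line. Red open diamonds give the value with equal cells per cluster. All intervals in the first and second panels include 0, and 5 of 6 in the spermatid-like panel do not, where the diamonds lie between -0.07 and 0.19.

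Spermatid-like cells follow the stages the genes were picked for. In T the log2 fold changes against UC were 1.47 (SE 0.36) for Pgf and 0.82 each for Adgrb3 and Cacna2d1. They were 0.68 for Prkce, 0.30 for 1700010I14Rik and 0.12 for March11. The median of all genes was 0.03, and the T libraries served to pick these 6. Pgf, the 1 gene of 6 past both thresholds (2.46% of 12986 genes in the higher direction, 15.5% in either), measured 5.79, 5.94 and 7.96 CPM in T and 3.20, 0.824 and 1.73 CPM in UC. Against VC-T 2 and VC-T 3 the ligand was higher by 1.96 (SE 0.39), again the 1 of 6 past both thresholds (2.60% of 14096 genes in the higher direction, 18.7% in either), and with VC-T 1 by 1.29, no longer passing. With equal cells per cluster Pgf had too few UMIs to be tested in either contrast, and 0 of the 4 and 5 genes left passed.

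March11 measured 1068, 1165 and 1158 CPM in spermatid-like cells of T and 689 to 885 CPM in the 11 control libraries other than VC-T 1, which measured 1174 CPM. 1700010I14Rik measured 720.3, 726 and 734 CPM in T and 423 to 526 CPM in those controls, with 784 CPM in VC-T 1. In CPM the T libraries thus stood above these controls for both genes, although neither passed the fold threshold. In the T vs UC fit the interval ran from -0.03 to 0.27 for March11 and from 0.14 to 0.45 for 1700010I14Rik. With equal cells per cluster 1700010I14Rik turned to -0.072 in T vs UC. In T vs VC-T, March11 then turned to -0.10 and 1700010I14Rik to -0.11. March11 in T vs UC kept its sign, at 0.011 or more over the alternatives. The part of the cluster mix in these CPM values was not tested.

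In R vs VC-R spermatid-like cells 0 of 6 genes passed both thresholds, where 8.10% of 14682 genes did so in the higher direction and 8.19% in either. At an adjusted p under 0.05 and any fold, 5 of the 6 genes passed, where 37.0% of all genes did and 46.8% had an unadjusted p under 0.05. Cacna2d1 was higher in R by 0.63 (edgeR adjusted p = 0.000746, 9.26e-05 to 0.996 over the alternatives), measuring 36.7, 35.7 and 44.7 CPM in R and 23.1, 22.7 and 21.0 CPM in VC-R. Adgrb3 was higher by 0.59 (edgeR adjusted p = 0.00864, 4.48e-05 to 0.956) and Prkce by 0.77 (edgeR adjusted p = 0.017, 0.00512 to 0.912). Genes of at least 300 kb, as Adgrb3, Cacna2d1 and Prkce are, had a median of 0.64 here over 545 genes tested. Over all genes the median was 0.05. Of these long genes 17.1% passed both thresholds for a higher level. The summed nuclear RNAs stood at 1408 to 1852 CPM in R and 820 to 1070 CPM in VC-R. The part of gene length or nuclear RNA in these values was not tested. March11 was lower by 0.42 on the log2 scale (log2 fold change -0.42, edgeR adjusted p = 0.00147, 1.58e-07 to 0.86) and 1700010I14Rik was lower too (-0.31, edgeR adjusted p = 0.0114, 0.00058 to 0.935). Pgf differed by 0.03 (edgeR adjusted p = 0.969, 0.723 to 0.999).

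These recovery differences in spermatid-like cells were smaller in size with equal cells per cluster. R cells made up 2426 of 3303, 1493 of 1878, 1577 of 1824 and 1419 of 2206 cells of clusters 6, 18, 20 and 13, whose median depths were 1696, 1578, 1498 and 1262 UMIs. With equal cells per cluster 0 of 5 genes tested passed, but so did only 1 of all 12036 genes (0.00831%), so the fit as a whole lost its calls. That draw kept 4 clusters and 352 cells per library. It left out clusters with too few cells in any library, so more than the mix of clusters changed. The values were -0.07 for Adgrb3, -0.01 for Cacna2d1, 0.19 for Prkce, -0.05 for March11 and -0.03 for 1700010I14Rik. Without R 3 or without VC-R 3 the count of genes passing at any fold was 2.

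Relatives of the 6 genes were counted in 5 lists of 53 genes: partners and paralogues of Adgrb3, calcium channel subunits, protein kinase C isoenzymes, VEGF ligands and receptors, and MARCH ligases. In T vs UC spermatocyte-like cells 23 of them were tested, 1 was higher and 1 lower, beside 1.93% of all genes in the higher direction and 4.54% in either, with a median of 0.05. Cacna1d, the pore-forming subunit of an L-type calcium channel, rose by 1.44 (SE 0.27, edgeR adjusted p = 0.00209), with 15.3, 8.73 and 15.3 CPM in T and 5.46, 3.99 and 4.21 CPM in UC. Prkcd, the delta isoenzyme of protein kinase C, was lower in T (log2 fold change -3.50, SE 0.48, edgeR adjusted p = 0.000147), with 0.723, 0.085 and 1.43 CPM in T and 5.78, 6.90 and 7.31 CPM in UC.

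No gene of the other 3 lists passed in T vs UC. Elmo2, which acts downstream of the Adgrb receptors, stood at 4.94 CPM in T and 4.19 CPM in UC (0.20, edgeR adjusted p = 0.685), Vegfb at 4.08 and 3.64 CPM (0.11, edgeR adjusted p = 0.855), and March10 at 434 and 421 CPM (-0.02, edgeR adjusted p = 0.873). In spermatogonia-like cells 0 of 16 tested passed in T vs UC.

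Against the vehicle controls of the same age, 3 of 28 relatives tested in spermatocyte-like cells were higher and 2 lower, beside 1.81% and 6.02% of all genes. They are named here after their values were seen. Cacna1d (1.11, edgeR adjusted p = 0.024), Prkca, the alpha isoenzyme of protein kinase C (1.06, edgeR adjusted p = 0.00209), and the ligase gene March9 (1.70, edgeR adjusted p = 0.0088) were higher. Prkcd (-3.71, edgeR adjusted p = 0.000666) and March8 (-1.99, edgeR adjusted p = 0.00341) were lower. Both were lower in spermatid-like cells of this contrast too, Prkcd by a log2 fold change of -4.17 and March8 by -2.005. The part of free RNA in the levels of these relatives was not tested. In spermatogonia-like cells March10 was higher (1.13, edgeR adjusted p = 0.0032), 1 of 24 tested. In R vs VC-R 0 of 30 genes tested in spermatocyte-like and 0 of 15 in spermatogonia-like cells passed, with -0.03 for Cacna1d (edgeR adjusted p = 0.985) and 0.46 for Prkcd (edgeR adjusted p = 0.761).

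Across the 30 sums of spermatogonia-like or spermatocyte-like cells per library, the genes most like each of the 6 were found by Pearson correlation of log2(CPM + 1). These correlations describe points that share libraries and that differ in depth and cell class. March11 and 1700010I14Rik had an r of 0.975 with each other, and the genes most like them were Cmtm2a (0.992 with March11) and Gm2762 (0.993 with 1700010I14Rik). Cmtm2a showed the same placing, with 291 CPM in T and 92.5 CPM in UC spermatogonia-like cells and 1020 and 1015 CPM in spermatocyte-like cells. Adgrb3 was most like Otud7a (0.845) and Cacna2d1 (0.840), and Cacna2d1 was most like Arl15 (0.953) and Plcb4 (0.948). Otud7a, Arl15 and Plcb4 were each higher in T vs UC spermatocyte-like cells, by 1.11, 1.33 and 1.14. Prkce was most like Cdkl4 (0.965) and Col16a1 (0.964), which stood at 67.3 against 61.2 CPM and 35.4 against 36.0 CPM there, so the genes nearest to this kinase across cell classes did not share its T level. Pgf was most like Phyhipl (0.845), at 92.6 against 68.9 CPM, and Dnajc18 (0.796).

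Genes that overlap the 6 bear on how their UMIs were counted, and neighbours are given as a description. The nearest protein-coding genes tested lay between 1.7 kb (Pde10a, beside 1700010I14Rik) and 2852.5 kb (Magi2, beside Cacna2d1) away. Log2 fold changes of these neighbours in T vs UC spermatocyte-like cells ran from -0.75 for Srbd1, beside Prkce, to 0.39. Pde10a stood at 0.10. Adgrb3 overlaps 23 annotated genes, 21 of them on its own strand and none of them counted in these data. Cacna2d1 overlaps 1 counted gene (Gm43000, on the other strand) and Prkce 2 (2010106C02Rik and Gm10309).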

How the data were processed

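Single-cell libraries (10x Genomics 3′ v3.1) of 15 mouse testes were analysed from the deposited UMI counts, raw whole-number counts per gene and barcode that, per the labels, the authors made with Cell Ranger 3.0.0 on mm10. The headers of the 15 matrix files name version 7.0.0 instead, and the conflict is not resolved here. Whether intronic reads were counted is not given in the sources used here, which bears most on the long genes Adgrb3, Prkce and Cacna2d1. The counts precede the removal of free RNA and doublets that the study describes, and no correction for free RNA was made. Barcodes had to show 500 genes and 1000 UMIs or more, with a mitochondrial share below 30%, and the 5.4% with the highest score against simulated doublets were removed per library. Cells were clustered on 2000 variable genes, 30 principal components and 20 neighbours (Leiden, leidenalg 0.10.2, resolution 1.2, seed 1) and clusters were named from marker genes, so names are rebuilt and may differ from those of the study.

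UMIs were summed per library and class (at least 10 cells) and compared between groups of 3 libraries (2 for VC-T) with the quasi-likelihood test of edgeR 4.0.16 in R 4.3.3 (TMM, filterByExpr, Benjamini-Hochberg over all genes tested), called, as in the study, at an adjusted p below 0.05 with a log2 fold change over 1 in size. Replicates were testes of separate mice. Alternatives were DESeq2 1.42.0, other scaling, no filter on low counts, a replicate block, VC-T 1 included, each library left out, resolution 0.8 and equal cells per cluster. The fits were tested on simulated counts. The members and gene lists were chosen with earlier results of these data known. The text names all 6 genes, the 2 most correlated genes of each (mean of at least 10 CPM, pseudocount 1), and from each family list the genes called or else the most abundant. Intervals cover 95%, and those on cells cover counting error only. Promoters were read from RefSeq (GRCm38.p6) and positions from GENCODE vM21. Prkce has no promoter entry.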

Additional observations from a re-analysis of the deposited data

Results flagged for a closer look

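VC-T 1, which is in none of the main fits, stood above every other control library for most of the genes. In spermatocyte-like cells it measured 25.2 CPM of Adgrb3 (others 11.4 to 23.9), 7.08 CPM of Cacna2d1, 46.6 CPM of Prkce, 6.37 CPM of Pgf, 1384 CPM of March11 and 927 CPM of 1700010I14Rik, each higher than in the other libraries of VC-T, VC-R and UC. It lay below all T libraries there for Adgrb3, Cacna2d1, Prkce and Pgf. In its spermatogonia-like cells March11 stood at 601 CPM (others 58.6 to 353), 1700010I14Rik at 329 CPM (others 58.0 to 222) and Prkce at 9.96 CPM (others up to 5.17). Its spermatid-like cells carried 21.8 CPM of Adgrb3, 41.1 CPM of Cacna2d1, 6.71 CPM of Prkce, 4.32 CPM of Pgf, 1174 CPM of March11 (others up to 885) and 784 CPM of 1700010I14Rik (others up to 526), above the other controls in all 6.

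In spermatid-like cells March11 was higher in CPM in each T library than in VC-T 2 and VC-T 3, and lower in each R library than in each VC-R library. The log2 fold changes of these contrasts differed by 0.662, and that difference was not tested.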

How the results depend on the processing

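With the number of genes of the 6 past both thresholds as the measure, the T vs UC and T vs VC-T counts of 3 in spermatocyte-like cells became 3 to 4 when a library was left out, since Prkce then reached a log2 fold change of up to 1.02 in T vs UC and 1.18 in T vs VC-T. T vs UC in spermatogonia-like cells kept a count of 2. In T vs VC-T spermatogonia-like cells it was 0 with VC-T 1 included. In spermatid-like cells it was 0 with equal cells per cluster in T vs UC and in T vs VC-T, and 0 with VC-T 1 included. Leaving out 1 library gave 1 to 2 in both spermatid-like contrasts, 0 to 1 in R vs VC-R spermatid-like cells, where Prkce reached 1.01 without VC-R 2, and 0 to 1 family gene in T vs UC spermatogonia-like cells. Over all counts of the 6 genes 109 of 117 stayed within 1.5 times, and of 624 log2 fold changes 32 turned sign, with the cause not tested. All genes past both thresholds with edgeR and DESeq2 numbered 416 and 165 in T vs UC and 782 and 279 in T vs VC-T spermatogonia-like cells, and 1203 and 673 in R vs VC-R spermatid-like cells. Values that turned sign with equal cells per cluster were -0.072 for 1700010I14Rik in T vs UC spermatid-like cells, -0.10 for March11 and -0.11 for 1700010I14Rik in T vs VC-T spermatid-like cells, 0.046 for March11 and 0.032 for 1700010I14Rik in R vs VC-R spermatocyte-like cells, -0.07 for Adgrb3 and -0.009 for Cacna2d1 in R vs VC-R spermatid-like cells, and 0.13 for Adgrb3 in T vs VC-T spermatogonia-like cells. Adgrb3 in T vs VC-T spermatogonia-like cells was 0.23 with the replicate block and 0.026 at resolution 0.8, and in R vs VC-R spermatogonia-like cells it was -0.021 with DESeq2 and -0.10 with the replicate block. March11 in R vs VC-R spermatogonia-like cells was 0.056 with no filter on low counts. Pgf in R vs VC-R spermatid-like cells was -0.13 with DESeq2, -0.029 with RLE scaling and -0.08 with the replicate block.

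Leaving out 1 library gave Adgrb3 -0.08 to 0.36 in T vs UC, -0.22 to 0.25 in T vs VC-T and -0.38 to 0.48 in R vs VC-R spermatogonia-like cells and -0.15 to 0.17 in R vs VC-R spermatocyte-like cells. It gave March11 -0.199 to 0.038 in T vs VC-T spermatocyte-like cells and -0.46 to 0.58 in R vs VC-R spermatogonia-like cells, 1700010I14Rik -0.77 to 0.26 in the latter, Cacna2d1 -0.13 to 0.51 in R vs VC-R spermatocyte-like cells and Pgf -0.10 to 0.21 in R vs VC-R spermatid-like cells. Samples of 1 number did not deviate together (correlations of -0.399 to 0.28), so the numbers were not taken as pairs. With the replicate block the counts for spermatogonia-like, spermatocyte-like and spermatid-like cells were 2, 3 and 1 in T vs UC, 3, 3 and 1 in T vs VC-T and 0, 0 and 0 in R vs VC-R, and no count changed. Equal cells per cluster left 19 cells per library and 0 of the 6 genes tested in T vs UC spermatogonia-like cells. With 76 cells per library and UC 1 left out, an alternative chosen after seeing the data, March11 was higher by 1.97 and 1700010I14Rik by 1.84. Pgf and Prkce in spermatogonia-like cells are limited by depth.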
